A study of Mus musculus with 18 samples.

Results

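Ybx2, Zar1, Zar1l, Lsm14b, Ddx6, Eif4enif1, Patl2, Cpeb1, Cpeb4 and Dazl encode the proteins that package, silence and reactivate the stored mRNAs of the oocyte. These 10 genes were taken by symbol from a table of 55291 genes, and all 10 were found. They were followed through meiotic maturation in mouse oocytes with and without VPS34, a lipid kinase (gene Pik3c3) that makes phosphatidylinositol 3-phosphate, starts autophagosomes and acts in endosome traffic. The 4 groups had 3 libraries each, and each library came from 5 pooled oocytes of females aged 5 weeks. The conditional knockout (cKO, ZcKO in the labels) carried floxed Vps34 and a Zp3-cre transgene, whose promoter is active in growing oocytes, and was sampled at metaphase II (MII) and at the germinal vesicle (GV) stage. The control carried floxed Vps34 and was sampled at the same stages. GV oocytes had been collected 46 h after PMSG, which stimulates follicle growth, and MII oocytes 14 h after hCG, which triggers ovulation, so oocytes of both genotypes came from hormone-treated females. No label ties a library to an animal, so p-values measure the spread between libraries. The 2-cell embryos of the series (6 samples) were not analysed here.

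A fully grown oocyte is transcriptionally silent and relies on mRNAs made during growth. Many of these are kept with short poly(A) tails in repressed particles until meiosis resumes. The Y-box protein YBX2 (MSY2) coats maternal mRNA. ZAR1, YBX2, DDX6, LSM14B and the eIF4E transporter EIF4ENIF1 (4E-T) gather with stored mRNA around mitochondria in mammalian oocytes. CPEB1 binds the U-rich cytoplasmic polyadenylation element in 3′ UTRs, holds mRNAs silent at the GV stage and promotes their tail growth after it is phosphorylated. In frog oocytes CPEB4 takes over late in meiosis from CPEB1, and DAZL promotes translation of selected mRNAs in mouse oocytes.

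The element that CPEB proteins bind is itself present in several of these mRNAs. For each gene, the coding transcript model with the longest 3′ UTR was used (GENCODE M21, build GRCm38, the same assembly as mm10). It was searched on the mRNA strand for TTTTAT or TTTTAAT, and for the polyadenylation signals AATAAA and ATTAAA. The 3′ UTR of 9 genes could be searched, and that of Zar1l, 17 bases long, could not. Of these 9, 7 held an element. The 4 stretches below, each 30 bases long and written 5′ to 3′ as DNA, are shown for both CPEB genes, for Dazl, and for Ybx2, with each element in capitals. In Cpeb4 the capitals run over 2 elements and the polyadenylation signal that overlaps the first of them.
Ybx2, chr11:69941532-69941561, plus strand: cctctgaagccaTTTTATgaactgtcatgt
Cpeb1, chr7:81347475-81347504, minus strand: ttgatagaagtTTTTAATcacagtcacagg
Cpeb4, chr11:31933761-31933790, plus strand: atataaataaTTTTAATAAATTTTATtttc
Dazl, chr17:50279752-50279781, minus strand: aagtcaaaattcTTTTATgtcaccaagtca

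Ybx2 had its single element within the last 100 bases of the model, where 17.7% of 19900 genes have one, and no other searched member had one there. The 3′ UTR of Ybx2 held neither polyadenylation signal. The other 8 searched members had a signal in the last 100 bases, as did 78.5% of the 19900 genes. Cpeb4 had 17 elements in a 3′ UTR of 4105 bases, 7 of them within 100 bases before a polyadenylation signal. In Cpeb1, 1 of 4 elements lay 40 bases before a signal, and in Eif4enif1 the only element lay 58 bases before one. Dazl had 6 elements, Ddx6 7 and Lsm14b 2, none so placed. These elements of Cpeb1 and Eif4enif1 ended 461 and 268 bases before the end of the model. The first Cpeb4 element shown ended 1857 bases before it. No match was found in Patl2 or Zar1. Long 3′ UTRs hold an element more often by length alone. Among genes whose 3′ UTR was within 10% of the member's length, the share with an element was 95.8% for Cpeb4, 95.9% for Ddx6, 81.8% for Dazl, 69.6% for Cpeb1, 66.0% for Lsm14b, 41.0% for Eif4enif1, 34.4% for Ybx2, 31.5% for Patl2 and 15.0% for Zar1. The share of such genes with an element placed before a signal was 58.7% for the length of Cpeb4, 31.8% for Cpeb1 and 20.5% for Eif4enif1. A match describes the letters of a model and was not tested as a binding site.

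None of the transcript models used for the 10 genes shared exon bases with another annotated gene, and other exons of these genes were not checked. Of the 50-base stretches of the Zar1 model, 22.8% also occurred, on either strand, in the gene models Gm15847 and Gm42668. Of those of the Ddx6 model, 4.49% occurred in Gm13410. The counts of these 2 members could therefore be divided with those gene models. The 10 genes lie on chromosomes 2 (Patl2 and Lsm14b), 5 (Zar1 and Zar1l), 7 (Cpeb1), 9 (Ddx6), 11 (Ybx2, Cpeb4 and Eif4enif1) and 17 (Dazl).

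Library totals lay between 2609780 and 4696630 gene counts. Levels are in CPM, counts scaled to a gene total of 1000000 per library, given for libraries 1, 2 and 3 of a group in that order. Pik3c3, the deleted gene, stood at 5.36, 2.42 and 3.21 CPM in cKO MII oocytes against 10.6, 21.4 and 17.1 CPM in control MII oocytes. At GV its CPM was 1.56, 1.65 and 2.67 in cKO and 35.5, 28.8 and 25.8 in control. The column names mark genotype by a letter that the sample titles do not use, and every genotype direction rests on reading T as cKO and C as control. The letters were read from the names and not from the Pik3c3 counts. All 14 oocyte markers averaged at least 10 CPM, as did 8 of 22 cumulus and granulosa cell markers and 1 of 14 blood and immune markers. Summed cumulus markers ranged from 988 to 2001 CPM in cKO MII, 1283 to 1594 in control MII, 357 to 614 in cKO GV and 436 to 537 in control GV libraries. Without Serpine2, cKO MII library 1 stood at 901 CPM of these markers, against 191 to 392 in the other 5 MII libraries. GV libraries held 84.3 to 116 CPM of them in cKO and 116 to 139 CPM in control. In the maturation comparison below, 11 of the 15 such markers tested were called higher in cKO and none lower. In control 9 were called higher and 2 lower. The part of RNA from these cells in the maturation changes was not tested. In pooled oocytes, fewer contributing cells and less RNA per cell cannot be told apart. The share of counts on a ribosomal RNA gene model was 1.79% to 2.12% in cKO MII and 1.24% to 2.55% in control MII libraries. At GV the share was 11.1%, 4.45% and 1.17% in cKO libraries 1 to 3 and 2.80%, 6.57% and 3.83% in control libraries 1 to 3.

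The 10 genes spanned a wide range of levels, and their order differed between the stages. Between genes, levels are given as CPM per kilobase of the transcript model, as mean ± SD over 3 libraries. In MII oocytes Dazl was the highest of the 10, at 724 ± 45.6 in cKO and 711 ± 79.5 in control. Zar1 followed at 315 ± 108 in cKO and 458 ± 8.27 in control. Eif4enif1 stood at 96.7 ± 4.09 and Cpeb1 at 80.5 ± 21.4 in cKO MII oocytes, the first within 1 SD of the second but not the reverse. In control MII oocytes, Eif4enif1 at 95.6 ± 4.65 and Cpeb1 at 96.3 ± 5.60 lay within each other's SD. Lsm14b stood at 73.5 ± 4.73 in cKO and 52.5 ± 19.4 in control MII oocytes, Zar1l at 35.7 ± 2.18 and 27.996 ± 10.4, and Cpeb4 at 20.9 ± 1.81 and 15.7 ± 3.35. Ddx6, Ybx2 and Patl2 were the lowest, between 2.68 ± 0.558 and 3.76 ± 0.995 in cKO and between 1.92 ± 0.695 and 4.58 ± 0.204 in control.

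In GV oocytes Zar1 was the highest, at 1350 ± 329 CPM per kilobase in cKO and 1194 ± 356 in control. Its paralog Zar1l was next, at 664 ± 25.2 in cKO and 644 ± 56.9 in control. Dazl stood at 384 ± 41.99 in cKO and 438 ± 32.4 in control, followed by Cpeb1 at 244 ± 15.1 and 255 ± 19.12 and Eif4enif1 at 150.2 ± 14.5 and 157 ± 20.1. Lsm14b at 71.97 ± 39.7 and Ybx2 at 65.4 ± 27.3 lay within each other's SD in cKO GV oocytes. In control GV oocytes Lsm14b stood at 45.4 ± 7.65 and Ybx2 at 60.8 ± 17.5, and the Ybx2 mean lay outside the SD of Lsm14b. Patl2 at 25.2 ± 8.54 and 20.99 ± 2.03, Cpeb4 at 7.08 ± 1.46 and 5.18 ± 0.575, and Ddx6 at 2.54 ± 0.975 and 2.34 ± 0.558 closed the order in cKO and control. This order depends on the transcript models, and that of Zar1l is 895 bases long with a 3′ UTR of 17 bases. In CPM, Zar1l at GV (594 in cKO, 577 in control) was below Dazl (1082 and 1235) and Cpeb1 (760 and 793).

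**Figure D1:**
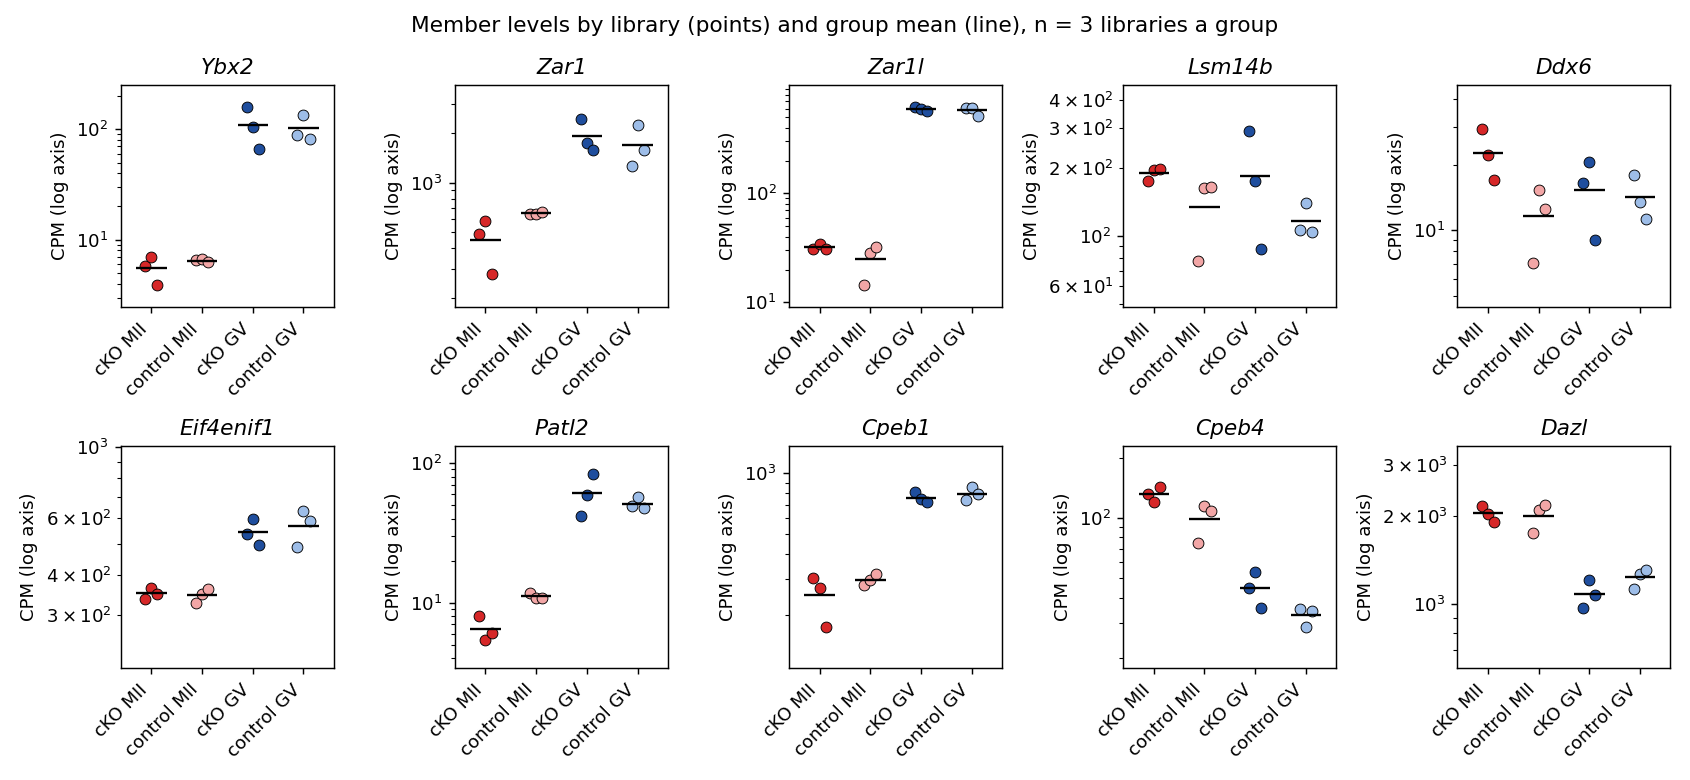
Level of each of the 10 genes in CPM (log axis, own range per panel) in cKO MII, control MII, cKO GV and control GV oocytes. Points are libraries 1 to 3 of a group from left to right and lines are group means; Ybx2, Zar1l, Patl2, Zar1, Cpeb1 and Eif4enif1 are lower and Cpeb4 and Dazl higher in every MII library than in any GV library.

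Maturation was compared first, within each genotype. In both genotypes 6 of the 10 mRNAs fell relative to the library (Ybx2, Zar1, Zar1l, Patl2, Cpeb1 and Eif4enif1), 2 rose (Cpeb4 and Dazl) and 2 did not pass the test (Lsm14b and Ddx6). Genes were called at an adjusted p under 0.05 (edgeR quasi-likelihood, Benjamini-Hochberg over 11607 genes) in a fit of all 12 libraries, and all 10 genes passed the filter on low counts. Change was the rule in this comparison: 63.5% of all genes tested were called in cKO (29.5% higher and 34.0% lower) and 63.9% in control (30.1% higher and 33.8% lower). With 8 of 10 members called, their share is close to that background. In CPM, the same 8 genes did not overlap between stages in either genotype, beside 65.3% of all genes in cKO and 67.3% in control. The median log2 fold change of the 10 genes was -0.99 in cKO and -0.92 in control, beside -0.04 and 0.01 over all genes tested. The cDNA was primed at the poly(A) tail and tail length was not measured. Changes of mRNA amount and of tail length therefore cannot be told apart here.

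Among the proteins that coat and hold mRNA, Ybx2 was called lower in both genotypes. It stood at 5.75, 6.96 and 3.92 CPM in cKO MII oocytes, against 157, 104 and 66.3 CPM in cKO GV oocytes. Control oocytes had 6.54, 6.64 and 6.25 CPM at MII, against 87.9, 135 and 81.8 CPM at GV. All MII libraries lay well below all GV libraries, and the GV libraries of cKO ranged more widely than those of control. The log2 fold change was -4.17 (SE 0.36, adjusted p = 1.7e-08, edgeR) in cKO and -3.83 (SE 0.35, adjusted p = 2.9e-08) in control, 17.9-fold and 14.3-fold lower. Of all genes tested, 2.54% in cKO and 3.67% in control had a lower log2 fold change. The MII values rest on 11 to 24 counts per library.

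Zar1 and Zar1l, which encode zinc-finger proteins that bind the 3′ UTRs of maternal mRNAs and are needed together for normal storage in mouse oocytes, both fell, with the larger fitted fold for Zar1l. Zar1 stood at 487, 583 and 281 CPM in cKO MII against 2464, 1741 and 1581 CPM in cKO GV oocytes. Its control level was 644, 652 and 667 CPM at MII against 1269, 2265 and 1586 CPM at GV. The 3 control MII libraries were nearly level, while cKO MII library 3 was less than any other MII library. The log2 fold change of Zar1 was -1.98 (SE 0.27, adjusted p = 5.1e-06, edgeR) in cKO and -1.26 (SE 0.26, adjusted p = 4.5e-04) in control.

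Zar1l stood at 31.0, 34.2 and 30.7 CPM in cKO MII against 618, 591 and 573 CPM in cKO GV oocytes. The control values were 14.4, 28.7 and 32.0 CPM at MII against 607, 605 and 518 CPM at GV. Its GV level was the steadiest of the members in cKO, and control MII library 1 was the lowest of all. It was 16.9-fold lower in cKO (log2 -4.07, SE 0.23, adjusted p = 1.1e-10, edgeR) and 21.1-fold lower in control (log2 -4.40, SE 0.23, adjusted p = 5.5e-11).

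The ratio of Zar1l to Zar1 counts within a library does not depend on how libraries are scaled. Its mean log2 value was -3.75 ± 0.486 (SD, n = 3) in cKO MII and -1.67 ± 0.283 in cKO GV oocytes. In control it was -4.78 ± 0.597 at MII and -1.53 ± 0.428 at GV. The difference between MII and GV was -2.07 in cKO and -3.25 in control, with no overlap between stages. Each gave an exact two-sided permutation p = 0.1, the smallest that 3 against 3 libraries can give, and 0.133 after Benjamini-Hochberg adjustment over 12 such tests.

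Patl2, the oocyte paralog of the decapping factor Patl1 and a gene whose loss in humans arrests oocyte maturation, was called lower in both genotypes. It stood at 8.05, 5.45 and 6.06 CPM in cKO MII against 42.0, 58.7 and 83.3 CPM in cKO GV oocytes. In control it stood at 11.7, 10.9 and 10.9 CPM at MII against 49.0, 56.7 and 47.5 CPM at GV. The stages did not overlap in either genotype. The log2 fold change was -3.08 (SE 0.28, adjusted p = 2.9e-08, edgeR) in cKO and -2.05 (SE 0.26, adjusted p = 1.7e-06) in control, 8.48-fold and 4.15-fold lower.

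Eif4enif1, whose product binds eIF4E and keeps it from the cap-binding translation complex, was the mildest of the 6 that fell. It stood at 335, 364 and 349 CPM in cKO MII against 537, 598 and 494 CPM in cKO GV oocytes. Control oocytes had 327, 348 and 361 CPM at MII against 489, 631 and 587 CPM at GV. The log2 fold change was -0.50 (SE 0.17, adjusted p = 0.0182, edgeR) in cKO and -0.59 (SE 0.17, adjusted p = 0.00653) in control. The cKO call was lost without cKO GV library 2 (adjusted p = 0.0787) or cKO MII library 1 (adjusted p = 0.0754), and the control call without control GV library 2 (adjusted p = 0.0525).

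Lsm14b and Ddx6 did not pass the test. Lsm14b, an RNA-binding protein of the stored particles, stood at 175, 195 and 197 CPM in cKO MII and 291, 176 and 87.6 CPM in cKO GV oocytes, and at 77.2, 163 and 164 CPM in control MII and 106, 139 and 104 CPM in control GV oocytes. The groups overlapped in both genotypes, and cKO GV was the most scattered. Its log2 fold change was 0.15 (95% interval -0.59 to 0.89) in cKO and 0.32 (-0.42 to 1.06) in control.

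Ddx6, a DEAD-box RNA helicase that represses translation, stood at 29.1, 22.1 and 17.1 CPM in cKO MII and 16.5, 20.7 and 8.998 CPM in cKO GV oocytes. Its control level was 7.09, 15.4 and 12.5 CPM at MII and 17.9, 13.5 and 11.3 CPM at GV. The stages overlapped in each genotype. Its log2 fold change was 0.68 (SE 0.33, adjusted p = 0.0793, edgeR) in cKO and -0.15 (SE 0.34, adjusted p = 0.710) in control. Without cKO GV library 2 the cKO value was 0.94 and passed the threshold (adjusted p = 0.0435).

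Of the regulators of polyadenylation, Cpeb1 fell and Cpeb4 rose in both genotypes. Cpeb1 stood at 303, 272 and 176 CPM in cKO MII against 812, 746 and 722 CPM in cKO GV oocytes. The control values were 283, 298 and 318 CPM at MII against 737, 855 and 787 CPM at GV. Again cKO MII library 3 was the lowest. The log2 fold change was -1.47 (SE 0.19, adjusted p = 2.9e-06, edgeR) in cKO and -1.27 (SE 0.19, adjusted p = 1.4e-05) in control, 2.78-fold and 2.41-fold lower.

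Cpeb4 stood at 131, 120.5 and 143 CPM in cKO MII against 44.8, 53.7 and 35.3 CPM in cKO GV oocytes. In control it stood at 75.0, 114 and 108 CPM at MII against 35.2, 28.5 and 34.3 CPM at GV. Every MII library exceeded every GV library of its genotype. It was 3.24-fold higher in cKO (log2 1.70, SE 0.21, adjusted p = 1.8e-06, edgeR) and 3.32-fold higher in control (log2 1.73, SE 0.21, adjusted p = 1.5e-06). Of all genes tested, 94.1% in cKO and 96.2% in control had a lower log2 fold change.

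Within a library, the mean log2 ratio of Cpeb4 to Cpeb1 counts was -0.89 ± 0.519 (SD, n = 3) in cKO MII and -4.10 ± 0.284 in cKO GV oocytes. It was -1.62 ± 0.273 in control MII and -4.60 ± 0.269 in control GV oocytes. The MII over GV ratio of ratios was 9.27 in cKO and 7.91 in control, without overlap between stages (exact two-sided permutation p = 0.1, adjusted 0.133, in each). Cpeb1 counts remained higher than Cpeb4 counts in all 12 libraries.

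Dazl, whose germ-cell RNA-binding product promotes translation of maternal mRNAs in mouse oocytes, rose relative to the library. It stood at 2172, 2037 and 1915 CPM in cKO MII against 969, 1205 and 1072 CPM in cKO GV oocytes. Control oocytes had 1751, 2090.4 and 2174 CPM at MII against 1131, 1269 and 1305 CPM at GV. The stages did not overlap. The log2 fold change was 1.06 (SE 0.17, adjusted p = 2.3e-05, edgeR) in cKO and 0.83 (SE 0.17, adjusted p = 2.5e-04) in control. The log2 ratio of Dazl to Ybx2 counts was 8.51 ± 0.353 in cKO MII and 3.39 ± 0.706 in cKO GV oocytes. It was 8.24 ± 0.191 in control MII and 3.63 ± 0.386 in control GV oocytes (exact two-sided permutation p = 0.1 in each genotype, n = 3).

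Neither rise was seen relative to spike-in RNA. ERCC RNAs, added for normalization per the labels' protocols, give a second scale, and the amount added per library is not stated there. Gene counts per ERCC count were 2.03, 2.21 and 1.51 in cKO MII against 13.1, 7.43 and 6.29 in cKO GV libraries, and 1.85, 2.31 and 2.42 in control MII against 4.35, 7.01 and 8.69 in control GV libraries. When ERCC totals served as library sizes, all genes together had a median log2 fold change of -2.37 in cKO and -1.72 in control. In cKO 88.0% of genes were called lower and 0.801% higher, and in control 70.1% lower and 0.56% higher. On that scale 9 of the 10 members were called lower and none higher in each genotype.

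Dazl stood at 3.93 ± 0.904 counts per 1000 ERCC counts (SD, n = 3) in cKO MII and 9.46 ± 3.01 in cKO GV oocytes, and its log2 fold change was -1.27 (adjusted p = 0.00153, edgeR). Its control level was 4.44 ± 1.06 at MII and 8.38 ± 3.24 at GV (log2 -0.92, adjusted p = 0.0263). Cpeb4 was the one member not called on this scale. It stood at 0.249 ± 0.0287 in cKO MII and 0.403 ± 0.182 in cKO GV oocytes (log2 -0.68, adjusted p = 0.114), and at 0.221 ± 0.0715 in control MII and 0.217 ± 0.0740 in control GV oocytes (log2 0.03, adjusted p = 0.951). Relative to the median of all genes, the ERCC-scaled changes of Cpeb4 were 1.69 in cKO and 1.75 in control, and those of Dazl 1.102 and 0.80. Lsm14b and Ddx6 were called lower with ERCC totals, Lsm14b at -2.38 in cKO and -1.36 in control, and Ddx6 at -1.65 and -1.78.

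**Figure D2:**
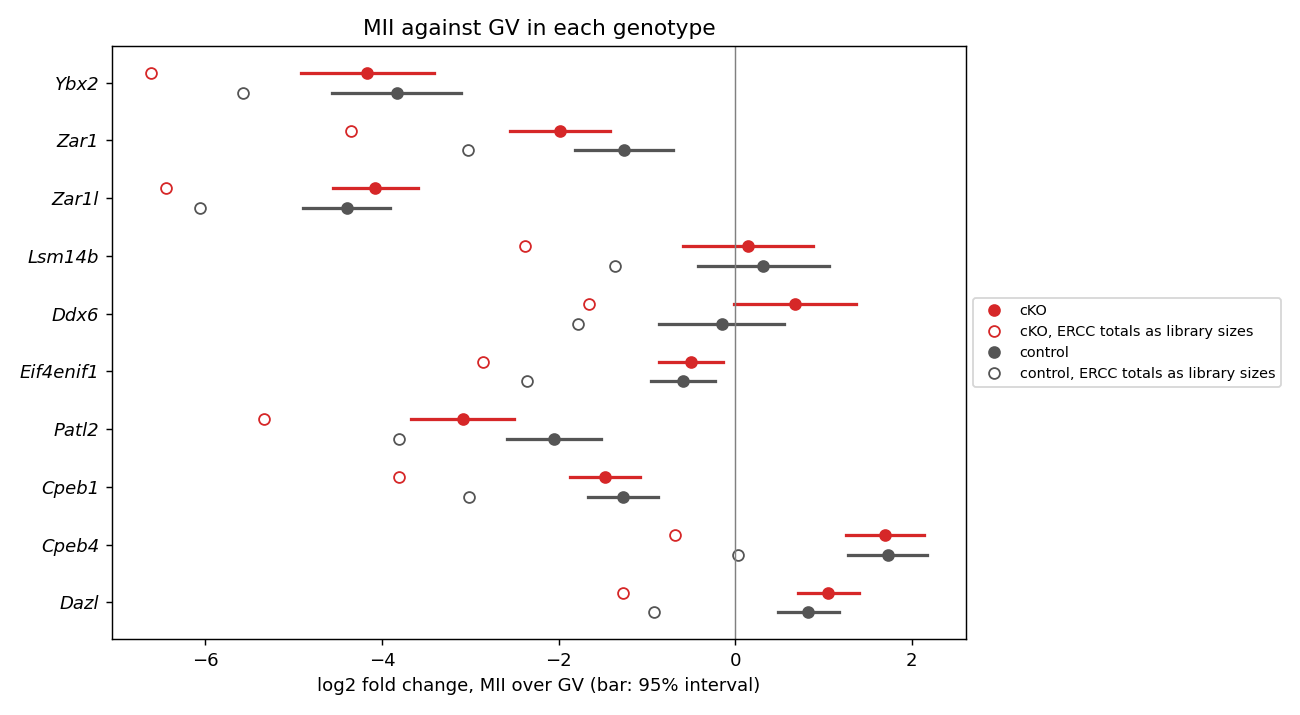
Log2 fold change of MII over GV for each of the 10 genes in cKO (red) and control (grey) oocytes. Filled points are the edgeR values with bars for their 95% intervals, and open points are the values with ERCC totals as library sizes; the filled points of Cpeb4 and Dazl lie right of 0, and the open points of all members except Cpeb4 in control lie left of 0.

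**Figure D3:**
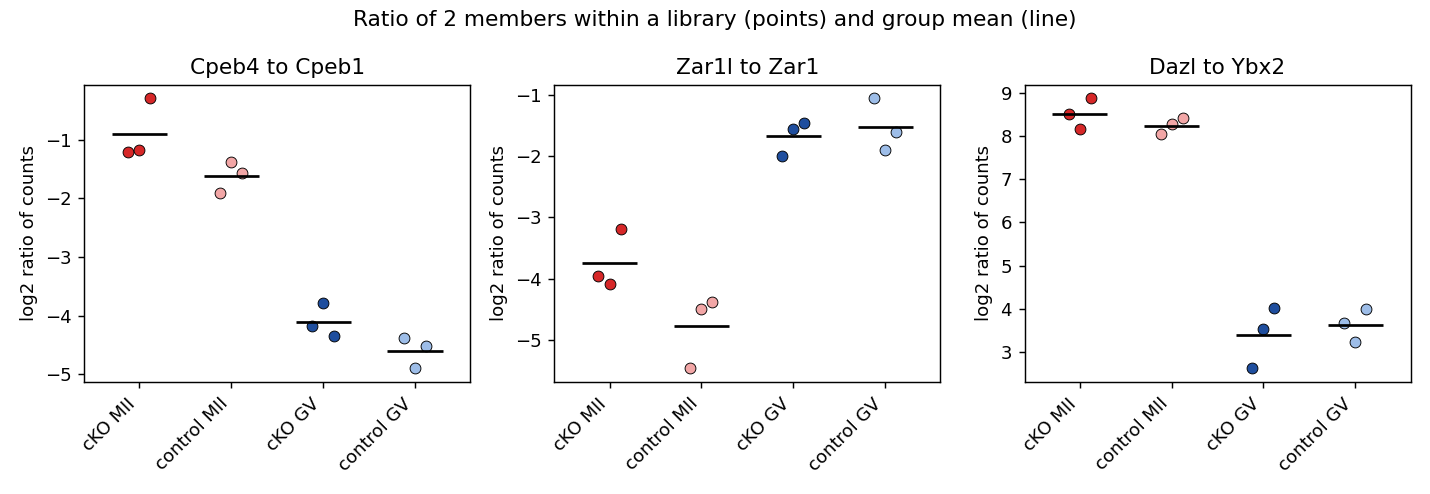
Log2 ratio of the counts of 2 members within each library, for Cpeb4 to Cpeb1, Zar1l to Zar1 and Dazl to Ybx2, in cKO MII, control MII, cKO GV and control GV oocytes. Points are libraries and lines are group means; in all 3 panels the MII libraries are apart from the GV libraries.

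Genes that work with these proteins were read in the same comparison, and their rises and falls are relative to the library. Cumulus and granulosa marker levels also differed between the stages, and their part in these changes was not tested. Genes were named by lowest p within each genotype. A gene named for only cKO or only control may therefore also have been called in the other genotype. The background was that given above, with 29.5% of all genes called higher and 34.0% lower in cKO. In control it was 30.1% and 33.8%. Of 20 partners in repressive particles and decapping, 19 were tested; 8 rose and 6 fell in cKO, and 7 rose and 7 fell in control, so 14 were called in each genotype, beside 63.5% and 63.9% of all genes. Ybx1, a Y-box paralog of Ybx2, rose 2.74-fold to 367 ± 52.8 CPM in cKO MII oocytes, against 146.5 ± 19.5 CPM in cKO GV oocytes (log2 1.46, adjusted p = 3.0e-06, edgeR). In control it rose 2.92-fold. Lsm14a, the paralog of Lsm14b, rose 2.38-fold in cKO and 2.91-fold in control, and the exonuclease gene Xrn1 2.93-fold and 2.88-fold. The genes that fell included Lsm3 (5.86-fold in cKO, 4.596-fold in control) and Lsm6 (4.17-fold and 5.89-fold), subunits of Sm-like rings that bind RNA, and Eif4e2, which encodes a cap-binding protein that represses translation (4.79-fold and 6.67-fold).

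Of 20 genes of cytoplasmic polyadenylation and poly(A) binding, 19 were tested; 4 rose and 8 fell in cKO, and 4 rose and 7 fell in control. Paip1, a poly(A)-binding protein partner that promotes translation, rose 7.06-fold to 3927 ± 356 CPM in cKO MII oocytes, against 625 ± 309 CPM in cKO GV oocytes, and rose 4.38-fold in control. Paip2, which inhibits poly(A)-binding protein, fell 4.83-fold in cKO and 5.94-fold in control. Pabpc1l, the oocyte poly(A)-binding protein, fell 8.84-fold in cKO and 6.33-fold in control. Tent2, a cytoplasmic poly(A) polymerase, rose 2.73-fold in cKO. Of the cleavage and polyadenylation subunits, Wdr33 rose 2.16-fold in cKO and 2.53-fold in control, while Cpsf4 fell 10.5-fold and 7.01-fold. Cpsf2 rose 2.54-fold in control.

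Of 30 other RNA-binding regulators, 26 were tested; 10 rose and 3 fell in cKO, and 11 rose and 3 fell in control. Stau2, of the Staufen double-stranded RNA-binding proteins, rose 2.14-fold in cKO and 1.99-fold in control, whereas Stau1 fell 1.59-fold and 1.82-fold. Fxr1 rose 2.02-fold in cKO, and Fxr2, of the same fragile X family, fell 8.87-fold in cKO and 4.94-fold in control. Fxr2 was low at MII and scattered at GV in cKO, at 4.8 ± 1.8 CPM against 45.9 ± 28.8 CPM. Msi2, a Musashi protein, rose 4.03-fold in cKO. Igf2bp3 and Pum2 rose 2.64-fold and 1.95-fold in control. Samd4b fell 1.74-fold in cKO. Larp1 fell 4.46-fold in control and was low, at 1.04 ± 0.202 CPM at MII against 5.19 ± 1.685 CPM at GV. Naming Fxr1, Msi2 and Samd4b for cKO and Igf2bp3, Pum2 and Larp1 for control does not show a difference between genotypes. No gene of this list was called in the difference of the maturation changes, cKO minus control.

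Of 12 mRNAs known to be dormant at GV and recruited for translation at maturation, all were tested; 9 rose in cKO and 10 in control, and none fell. Their median log2 fold change was 1.05 in cKO and 1.06 in control, beside -0.04 and 0.01 over all genes. Tail length was not measured, so these rises cannot be told apart from longer poly(A) tails. Orc6, an origin recognition subunit, rose 3.05-fold in cKO and 2.75-fold in control, Cnot7, a deadenylase of the CCR4-NOT complex, 3.08-fold and 2.68-fold, and Il7, the cytokine interleukin 7, 3.31-fold and 3.47-fold. With ERCC totals, no gene of these 4 lists was called higher in either genotype. In cKO, Ybx1 (log2 -0.92), Lsm14a (-1.20), Tent2 (-0.86), Wdr33 (-1.20), Stau2 (-1.25) and Fxr1 (-1.35) were instead called lower (adjusted p under 0.05, edgeR). Xrn1, Paip1, Msi2, Orc6, Cnot7 and Il7 were not called in cKO on that scale. No rise named for control was called lower there.

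The comparison of cKO with control asked whether loss of VPS34 altered the levels of these mRNAs. At MII no member passed the test, and neither did any other of 9677 genes (0.0% called by edgeR; DESeq2 called 4 genes, none a member). Pik3c3, the deleted gene, did not pass at MII either, at 4.57-fold lower in cKO (log2 -2.19, unadjusted p = 1.5e-04, adjusted p = 0.530, edgeR), so an absence of calls at this stage does not show an absence of change. Of the 10 members, 3 had an unadjusted p under 0.05, beside 9.01% of all genes: Ddx6, Zar1 and Patl2. In 5 members the CPM of the genotypes did not overlap, Ddx6, Lsm14b and Cpeb4 being higher and Zar1 and Patl2 lower in cKO, beside 15.8% of all genes tested (8.19% higher and 7.57% lower).

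Ddx6, with the MII values given above, was 1.92-fold higher in cKO (log2 0.94, 95% interval 0.25 to 1.63, unadjusted p = 0.0123, adjusted p = 0.530, edgeR). It was highest in cKO MII library 1, which also had the most cumulus and granulosa marker counts. Without that library its log2 fold change was 0.74, and the part of these markers in it was not tested. Zar1 was 1.497-fold lower in cKO (log2 -0.58, interval -1.06 to -0.11, unadjusted p = 0.0206, adjusted p = 0.530), and -0.35 without cKO MII library 3. Patl2 was 1.76-fold lower in cKO (log2 -0.82, interval -1.51 to -0.12, unadjusted p = 0.0249, adjusted p = 0.530), on 17 to 21 counts per cKO library and 36 to 43 per control library. Cpeb4 was 1.31-fold higher (log2 0.39, interval -0.01 to 0.78) and Lsm14b 1.38-fold higher (log2 0.47, interval -0.04 to 0.98), and the Lsm14b value was 0.23 without control MII library 1.

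The other 5 members differed less between genotypes at MII. Dazl was at -0.01 (interval -0.31 to 0.30) and Eif4enif1 at -0.02 (-0.31 to 0.27) on the log2 scale. Cpeb1 was at -0.30 (-0.70 to 0.11), Ybx2 at -0.26 (-1.05 to 0.54) and Zar1l at 0.33 (-0.26 to 0.92). The log2 ratio of Zar1l to Zar1 was 1.03 higher in cKO than in control MII oocytes, and that of Cpeb4 to Cpeb1 was 0.72 higher, both without overlap (exact two-sided permutation p = 0.1, adjusted 0.133). The ratio of Dazl to Ybx2 differed by 0.28 (exact p = 0.4).

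At GV no member passed the test, and 9 of 10911 genes did (0.0825%). None of the 10 had an unadjusted p under 0.05, beside 2.2% of all genes. Lsm14b at 0.64 (95% interval -0.14 to 1.41) and Cpeb4 at 0.41 (-0.07 to 0.90) had the highest log2 fold changes, and Dazl at -0.24 (-0.63 to 0.15) the lowest. The Lsm14b value was 0.10 without cKO GV library 1 and 0.99 without cKO GV library 3, and that of Cpeb4 was 0.26 without cKO GV library 2. Cpeb4 alone of the members did not overlap between genotypes in CPM, beside 7.26% of all genes (4.96% higher). The margin was small: cKO GV library 3 had 35.3 CPM on 106 counts, and control GV library 1 had 35.2 CPM on 104 counts. Per ERCC count, the genotypes overlapped for Cpeb4. Zar1l was at 0.00 (-0.38 to 0.37), Zar1 at 0.13 (-0.45 to 0.71), Ybx2 at 0.07 (-0.62 to 0.76), Patl2 at 0.20 (-0.31 to 0.71), Ddx6 at 0.10 (-0.62 to 0.82), Cpeb1 at -0.11 (-0.50 to 0.28) and Eif4enif1 at -0.12 (-0.54 to 0.30). The ratio of Cpeb4 to Cpeb1 was 0.50 higher in cKO on the log2 scale (exact p = 0.1), and the ratios of Zar1l to Zar1 and Dazl to Ybx2 differed by -0.15 and -0.25 (exact p = 0.7 each).

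**Figure D4:**
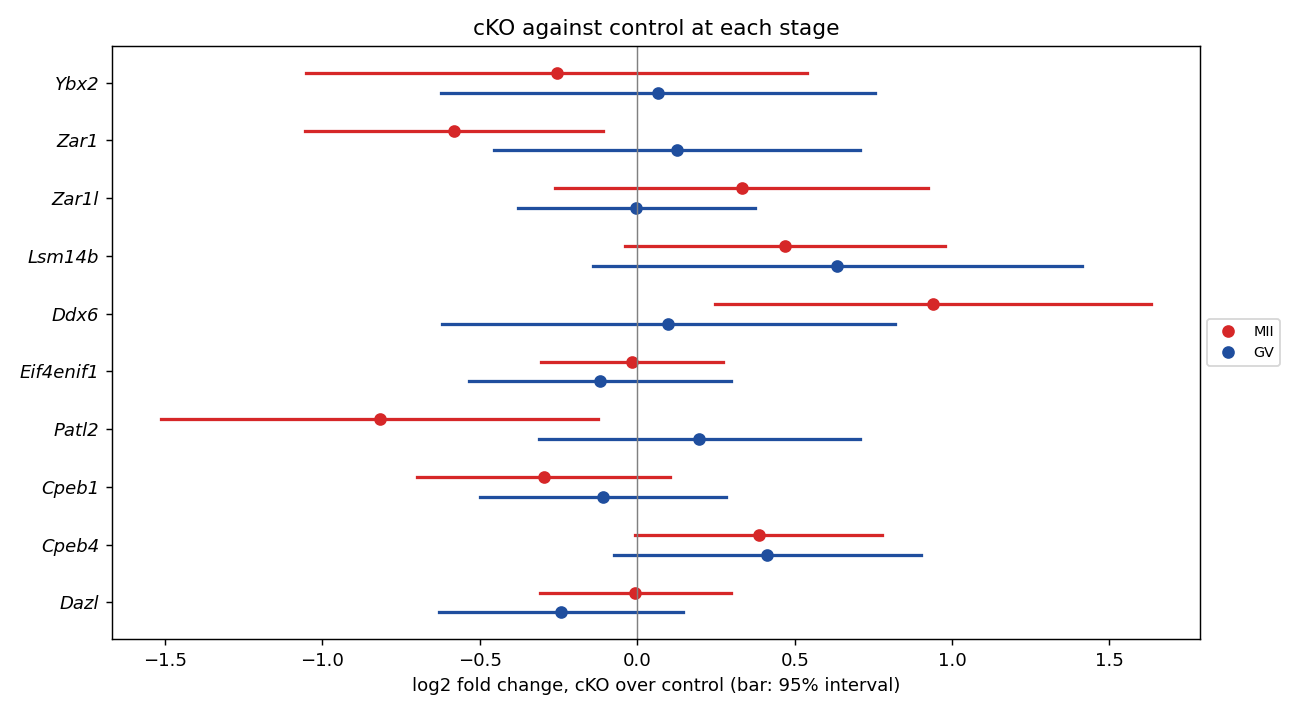
Log2 fold change of cKO over control for each of the 10 genes at MII (red) and GV (blue), with 95% intervals from edgeR. At GV every interval includes 0; at MII the intervals of Ddx6, Zar1 and Patl2 lie to one side of 0, and none passed after adjustment over all genes.

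On the ERCC scale no member passed between genotypes at either stage, beside 0.0% of all genes in either direction at MII and 0.055% called higher and 0.0458% called lower at GV. Patl2 stood at 0.0125 ± 0.00361 counts per 1000 ERCC counts in cKO MII and 0.0244 ± 0.00238 in control MII oocytes, and at 0.503 ± 0.0596 in cKO GV and 0.341 ± 0.111 in control GV oocytes. Patl2 was the only member whose genotypes did not overlap on this scale. It was lower in cKO at MII, beside 10.6% of all genes lower without overlap, and higher in cKO at GV, beside 5.83% of all genes higher without overlap.

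Whether maturation itself differed by genotype was tested as the difference of the 2 maturation changes, cKO minus control, in the fit of all 12 libraries. No member passed, and 1 of 11607 genes did (0.00862%). Patl2 had the lowest member value, -1.03 (SE 0.38, unadjusted p = 0.0128, adjusted p = 0.875, edgeR), and was the only member with an unadjusted p under 0.05, beside 5.24% of all genes. With ERCC totals its value was -1.53 (adjusted p = 0.635), beside a median of -0.61 over all genes on that scale. Zar1 was at -0.73 (95% interval -1.50 to 0.05) and Ddx6 at 0.83 (-0.16 to 1.82). Cpeb4 was at -0.03 (-0.65 to 0.58), Dazl at 0.23 (-0.26 to 0.71), Cpeb1 at -0.20 (-0.76 to 0.35), Eif4enif1 at 0.09 (-0.42 to 0.60), Lsm14b at -0.17 (-1.22 to 0.87), Ybx2 at -0.33 (-1.37 to 0.71) and Zar1l at 0.33 (-0.30 to 0.95). The maturation and genotype comparisons share libraries, so their values are not independent of each other.

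The lists of partner genes gave no call between genotypes at either stage or in the difference of the changes. At MII the lowest p in each list belonged to Lsm6 at 0.59, Paip1 at 0.54, Fmr1 at 0.77 and Plat, the tissue plasminogen activator and a classical dormant mRNA, at -0.95 (adjusted p = 0.530 each, edgeR). At GV it belonged to Xrn1 at 0.33, Cpsf4 at 0.37, Plat at -0.36 and Celf1, an RNA-binding protein, at 2.19. Celf1 averaged 11.7 ± 4.35 CPM in cKO GV and 2.56 ± 1.36 CPM in control GV oocytes (adjusted p = 0.262), and passed with ERCC totals (adjusted p = 0.0223). In the difference of the changes it belonged to Lsm5 at 0.69, Pabpn1l at -1.23, G3bp1 at -0.82 and Tex19.1 at -1.17 (adjusted p = 0.875 each). List medians between genotypes lay between -0.17 and 0.16, beside 0.02 at MII and 0.01 at GV over all genes.

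Within GV oocytes, the levels of the members were also set against the share of the ribosomal RNA gene model in each library. Over the 6 GV libraries Ybx2 had Pearson's r of 0.94 with that share (Spearman's rho 0.943) on the log2(CPM + 1) scale. The permutation p was 0.00278 for r and 0.0167 for rho, and 0.0556 and 0.167 after adjustment over 20 relations. Without the 2 libraries farthest from the median share, r was 0.916. Zar1 had r of 0.859 (permutation p = 0.0208, adjusted 0.139, rho 0.943) and 0.989 without those libraries. Lsm14b had r of 0.922 (permutation p = 0.0194, adjusted 0.139, rho 0.886) and 0.52 without those libraries, so its relation rests on them. Cpeb1 had r of 0.727 (permutation p = 0.0833, adjusted 0.333, rho 0.886) and 0.875 without them. Dazl had r of -0.391 (permutation p = 0.456, rho -0.0286), which turned to 0.558 without the same 2 libraries, and Patl2 had r of -0.671 (permutation p = 0.153, rho -0.543), which turned to 0.678. The other 4 members had r between 0.239 and 0.461 (lowest permutation p = 0.336). Over the 6 MII libraries, r lay between -0.0933 for Patl2 and 0.787 for Dazl (lowest permutation p = 0.0681, adjusted 0.333). Ybx2 was at 0.22 and Zar1 at 0.19 there, and at 0.977 and 0.964 without the 2 farthest libraries. The relation was looked for after the data were seen, and none passed the adjustment. With the share as a covariate, the genotype difference at GV was 0.29 for Lsm14b, -0.17 for Ybx2 and 0.01 for Zar1 on the log2 scale.

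**Figure D5:**
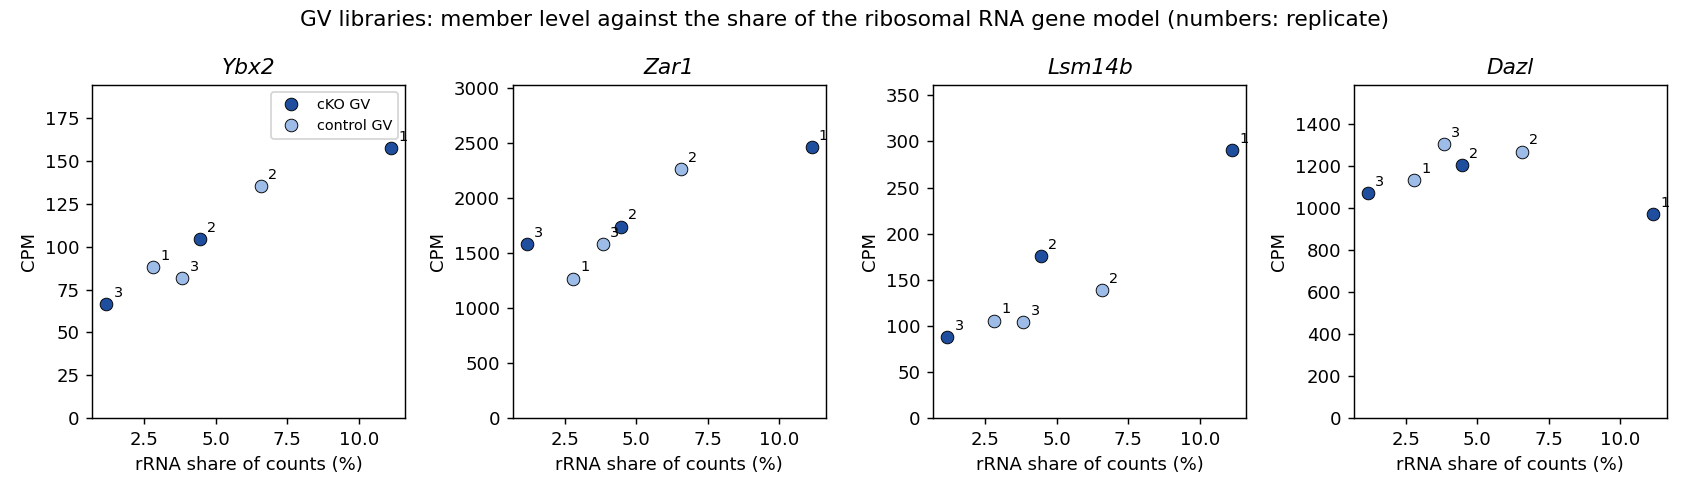
Level in CPM of Ybx2, Zar1, Lsm14b and Dazl in the 6 GV libraries (cKO dark, control light, numbered by replicate) against the share of gene counts taken by the ribosomal RNA gene model, in percent. cKO library 1, at 11.1%, has the highest Ybx2, Zar1 and Lsm14b levels, and the lowest Dazl level.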

How the data were processed

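The deposited values are raw read counts for each gene symbol, made by the authors with fastp, HISAT2 and featureCounts on mm10, per the submitters' processing notes. Per the labels' protocols, libraries of 5 oocytes were made by Smart-seq2 with ERCC spike-ins. Smart-seq2 primes cDNA at the poly(A) tail, so a count can depend on tail length as well as on mRNA amount, and tail length was not measured. The annotation release, strand setting and treatment of multi-mapped reads were not given in the sources used here.

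The table has 55383 entries, 92 of them ERCC. Columns were matched to 12 samples by name, and 6 columns that match no label were not used. CPM was computed from gene totals without the ERCC entries. Genes were tested with edgeR 4.0.16 (R 4.3.3; TMM, filterByExpr, robust quasi-likelihood) and Benjamini-Hochberg adjustment over all genes tested at 0.05. Genotypes were compared within the 6 libraries of a stage, and maturation and its difference in 1 fit of 12 libraries. Standard errors are the log2 fold change over the root of F. Ratios used a pseudocount of 0.5 and exact permutation tests, which cannot go below p = 0.1. Steps were tested on simulated data. Alternatives were DESeq2 1.42.0, its size factors, ERCC totals as library sizes, no filter, other fits, a replicate block, each library left out and, added later, the ribosomal RNA share as a covariate.

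The members and lists were chosen with earlier results of these data known. Named were all members, Pik3c3 and, per list and comparison, up to 3 genes of lowest p among those called in each direction, or else the 1 of lowest p. Reads carry no molecular identifiers, so counting error is only a lower limit on the uncertainty of low values.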

Additional observations from a re-analysis of the deposited data

How the results depend on the processing

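All member calls of the maturation comparisons kept their direction and side of the threshold with DESeq2, its size factors, no filter, the replicate block and fits of 1 genotype alone. ERCC totals changed them: members called higher became 0 in both genotypes, and Dazl (-1.27 in cKO, -0.92 in control), Cpeb4 (-0.68 in cKO), Lsm14b (-2.38 and -1.36) and Ddx6 (-1.65 in cKO) turned negative. With ERCC totals list genes called higher became 0 in both genotypes, and those called lower 66 in cKO and 45 in control (17 each otherwise).

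Genes called between genotypes at GV were 28 without a filter, 3 in the fit of 12 libraries and 32 with the ribosomal covariate, against 9. At MII they were 4 with DESeq2 and 96 without a filter, against 0. In the difference of the changes they were 3 with DESeq2, 3 with ERCC totals and 18 without a filter, against 1. List genes called were 1 higher at GV with DESeq2, ERCC totals, no filter or the covariate, and 3 lower at MII without a filter, against 0. The cause was not tested. Uncalled genotype values at GV changed sign for Cpeb1 (0.37), Dazl (0.17), Eif4enif1 (0.32) and Zar1l (0.50) with ERCC totals. The median of all genes was 0.46 there. Relative to it, Cpeb1 was at -0.09, Dazl at -0.28, Eif4enif1 at -0.14 and Zar1l at 0.04. Zar1l (0.0049) also changed sign at GV with DESeq2, and Ybx2 (-0.17) with the covariate. At MII Dazl was 0.0017 with DESeq2 size factors. In the difference of the changes Cpeb4 was 0.0043 with DESeq2 size factors, and Dazl -0.35, Eif4enif1 -0.51 and Zar1l -0.38 with ERCC totals. The median of all genes with ERCC totals was -0.61 in that comparison. Relative to it, Dazl was at 0.26, Eif4enif1 at 0.105 and Zar1l at 0.23.

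Leaving out 1 library gave 2 to 10 genes called at GV, 0 at MII and 0 to 3 in the difference. Genes called at GV were 2 without cKO library 2, and 4 without control library 2. In the difference they were 0 without cKO GV 1 or 2, cKO MII 2 or 3 or control MII 2, 2 without control GV 3 or control MII 1, and 3 without control MII 3. Members called in maturation were 2 to 3 higher and 5 to 6 lower in cKO, and 2 higher and 5 to 6 lower in control.

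Without 1 library, sign changes arose only among values that no test called. The ranges between genotypes at GV were -0.33 to 0.37 for Ybx2, -0.039 to 0.38 for Patl2, -0.13 to 0.43 for Zar1, -0.075 to 0.067 for Zar1l, -0.17 to 0.39 for Ddx6, and for the ratios -0.33 to 0.087 (Zar1l to Zar1) and -0.56 to 0.13 (Dazl to Ybx2). At MII they were -0.045 to 0.043 for Dazl and -0.05 to 0.022 for Eif4enif1. In maturation they were -0.21 to 0.68 for Lsm14b in cKO and -0.35 to 0.069 for Ddx6 in control. In the difference they were -0.65 to 0.069 for Ybx2, -0.21 to 0.12 for Cpeb4, -0.038 to 0.21 for Eif4enif1 and -0.53 to 0.36 for Lsm14b.

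At GV the deviations of same-numbered libraries from their group means had r of -0.187, 0.0208 and 0.173. With 3 libraries a group, such values are tied to each other and cannot settle whether the numbers pair libraries. The main fits did not pair them. With the replicate block 11 genes were called at GV, 0 at MII, 7233 and 7272 in maturation and 1 in the difference, and no member call changed. Low counts of Ybx2, Patl2 and Ddx6 limit their precision.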
